A study of Homo sapiens with 2 samples.

Results

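The cells described here are barcodes of 1 pooled single-cell library, grouped by the share of their gene UMIs (unique molecular identifiers, 1 per captured RNA molecule) that came from the 13 mRNA genes of the mitochondrial genome. Of 10836 barcodes, 8488 were called for a single hashtag, and 8091 of these held at most 36000 gene UMIs and 6000 genes. A low group of 736 cells had a mitochondrial share of at most 10%, a middle group of 6814 cells lay over 10 to 18%, and a high group of 541 cells lay over 18%. The cells came from the human induced pluripotent stem cell line iPS11, which was taken through aggregates to CD34+ cells and then through an endothelial-to-haematopoietic transition culture. The non-adherent cells were collected at day 5 from wells that were uncoated or coated with VCAM1, with DLL4, or with DLL4 and VCAM1. For each of these 4 conditions 3 wells were pooled, marked with 1 antibody hashtag (0252, 0253, 0254 or 0255) and mixed at equal ratios. The labels tie no hashtag to a coating and name no replicates. All 3 groups sat in each hashtag and in the same library, so no p-value was computed, and the 4 hashtags, always given in the order 0252 to 0255, stand as 4 values side by side. The intervals below are exact 95% intervals and cover counting error only.

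Mitochondria keep a small circular genome that codes for core subunits of respiratory complexes I, III and IV and of ATP synthase, and many nuclear genes supply the other subunits, the mitochondrial ribosome and the import machinery. In single-cell work the mitochondrial share is read as a measure of cell quality, because a leaky cell can lose cytoplasmic RNA while its mitochondria stay inside. The share also differs between healthy cell types, since it depends on how many mitochondria a cell has and on how much other mRNA it makes.

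The groups were chosen by this share, so the following values describe them and test nothing. The median share of all 8091 cells was 13.3%, with hashtag medians of 13.2, 13.1, 13.6 and 13.3%, and the median depth was 17900 gene UMIs per cell. Low cells held a median of 15800 nuclear and 1424.5 mitochondrial UMIs, and middle cells 15875 and 2472. High cells held 7276 and 2454. In the pool, low cells therefore had fewer mitochondrial UMIs at a like nuclear depth. By hashtag their median nuclear UMIs were 12847, 16028.5, 19132 and 17352, against 16217, 16261.5, 15587 and 15104 in middle cells, so depth differed in both directions. High cells had fewer nuclear UMIs at a like mitochondrial count. The low group was 9.10% of the cells (8.48 to 9.74%), and 11.3, 9.46, 7.07 and 8.03% by hashtag. The high group was 6.69% (6.15 to 7.25%), and 6.77, 5.63, 6.10 and 8.56% by hashtag. The limits cut a continuous distribution. The cells on either side of the lower limit had shares of 9.99861% and 10.005%, and those at the upper limit 17.9975% and 18.0036%.

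**Figure D1:**
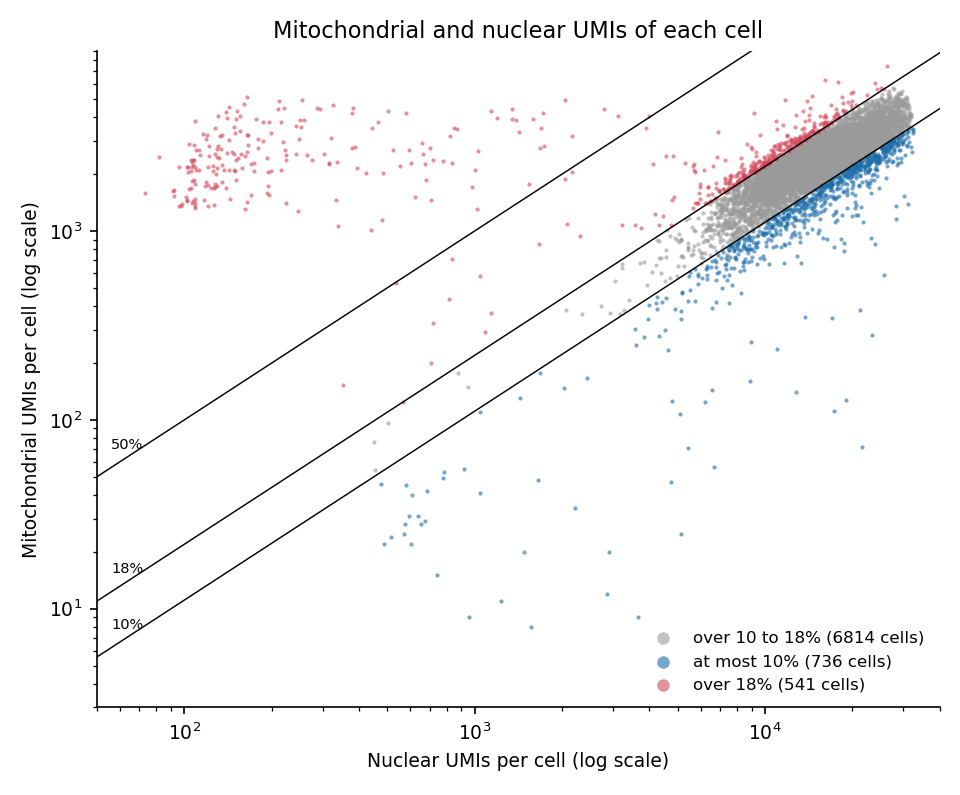
Each point is 1 of the 8091 cells, with its nuclear UMIs on the x axis and its mitochondrial UMIs on the y axis, both on log scales, and lines mark shares of 10, 18 and 50%. The 206 barcodes over 50% form a separate arm with a median of 164 nuclear UMIs and about as many mitochondrial UMIs as the other cells.

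Within the high group, 206 barcodes (2.55% of all 8091) lay over 50% and had almost no nuclear RNA, with a median share of 93.4%. By hashtag they numbered 51, 41, 37 and 77. Their median hashtag count was 1250 UMIs, beside 1244 in the middle group and 1356 in the low group. The other 335 high cells held a median of 10295 nuclear and 2463 mitochondrial UMIs. The results for the high group are therefore also given without the barcodes over 50%.

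Each cell was placed in a marker gate by the marker list with the largest sum, where that sum reached 10 per 10000 nuclear UMIs and 3 UMIs, and was otherwise left without a gate. The HLA class II gate was closed to cells whose macrophage sum also reached these limits, even where the HLA class II sum was larger. The leading markers separated most gates from the other cells. MPO, the myeloperoxidase of the azurophil granule, was at 6584 CPM (nuclear UMIs scaled to a total of 1000000) in its gate and 157.9 outside it, the collagen gene COL1A1 at 1918 and 2.53 in and outside the stromal gate, and the foetal globin gene HBG2 at 5346 and 28.0 for the erythroid gate. The complement gene C1QA was at 647 in the macrophage gate and 11.01 outside it. It gave only 9.35% of the macrophage marker sum. SPP1 gave 63.8%, at 4412 CPM in the gate and 20.7 outside it. The endothelial gate was less sharp. EGFL7, which these cells carried widely, gave 59.6% of its marker sum and stood at 858 CPM in the gate and 212 outside it, and the adhesion gene CDH5 of endothelial junctions was at 23.3 and 0.621.

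Low shares went with early neutrophil and stromal cells. The azurophil granule gate took 40.5% of the low group (36.9 to 44.1%) and 14.1% of the middle group (13.3 to 14.9%). By hashtag it took 46.3, 59.5, 25.2 and 17.4% of the low cells and 19.7, 21.4, 7.03 and 6.07% of the middle cells. The low value was the higher one within each hashtag, while the ranges over hashtags overlapped. The later neutrophil gate rested on S100A9 and S100A8, which gave 68.9 and 28.8% of its marker sum. The secondary granule genes LCN2 and LTF had 0 UMIs in it and CAMP had 1. This gate took 3.80% (2.54 to 5.45%) against 1.03%. The stromal gate took 6.93% (5.20 to 9.01%) against 0.646%, but it was uneven over hashtags, at 2.70, 4.50, 7.19 and 18.1% of the low cells and 0.160, 0.111, 0.351 and 2.30% of the middle cells. Of the 104 stromal-gated cells, 66 carried hashtag 0255. The endothelial gate took 5.71% (4.14 to 7.64%) against 3.49%, with the low value below the middle one in hashtag 0252 (2.70 and 3.09%) and above it in the other 3.

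The erythroid gate was rarer among low cells, at 2.58% against 7.60% of middle cells. By hashtag it took 2.70, 3.00, 2.88 and 1.45% of the low cells and 9.54, 9.85, 6.67 and 3.35% of the middle cells. Macrophage-gated cells made up 5.43 and 9.07%, cells gated on HLA class II genes 7.07 and 12.5%, and megakaryocyte-gated cells 1.09 and 1.75%. In hashtag 0252 the macrophage gate went the other way, at 8.88 and 8.26%. Summed, the macrophage markers were at 599 CPM in the low and 511 CPM in the middle group. By hashtag they were at 896, 733, 161 and 428 against 362, 896, 397 and 342 CPM. Of the 68 cells below 6%, the HLA class II gate took 14.7% (7.28 to 25.4%) and the erythroid gate 11.8% (5.22 to 21.9%). Cells with no gate were 20.4% of the low group and 42.8% of the middle group.

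Ranked by the median share of the cells at or below 50%, the stromal gate was lowest at 10.2%, followed by the later neutrophil gate at 11.1%, the azurophil gate at 11.4% (11.2 to 11.6% over hashtags) and the endothelial gate at 11.998% (11.7 to 12.4%). The T and NK lymphoid gate had 12.7%, the eosinophil gate 12.9%, the mast and basophil gate 13.1% (18 cells) and the progenitor gate 13.4%. The HLA class II gate had 13.9% (13.6 to 14.5%), the macrophage gate 14.1% (13.3 to 15.1%), the megakaryocyte gate 14.3% (12.3 to 14.6%) and the erythroid gate 14.3% (13.8 to 14.6%). The last 4 were not separable, since their hashtag ranges overlapped, while the azurophil range lay below the endothelial one. Along narrow bins of the share, the azurophil gate held 52.6% of 173 cells at 8 to 9%, 34.7% of 686 cells at 10 to 11%, 10.8% of 1228 cells at 13 to 14% and 1.27% of 236 cells at 18 to 20%. At 20 to 50% it held 10.1% of 99 cells (4.95 to 17.8%), so the decline did not continue. The summed azurophil markers were at 268 CPM at 18 to 20%, 989 at 20 to 25% (67 cells) and 2719 at 25 to 50% (32 cells). By hashtag they were at 2157, 928, 403 and 317 CPM at 20 to 25%, and 7044, 474, 335 and 1453 at 25 to 50%. Hashtags 0253 and 0254 thus went down between these bins. Below 6% the azurophil gate held 4.41% of 68 cells, so its peak was not at the very lowest shares. The stromal median was the lowest of all gates in each hashtag, at 7.94, 6.93, 7.72 and 10.9%.

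**Figure D2:**
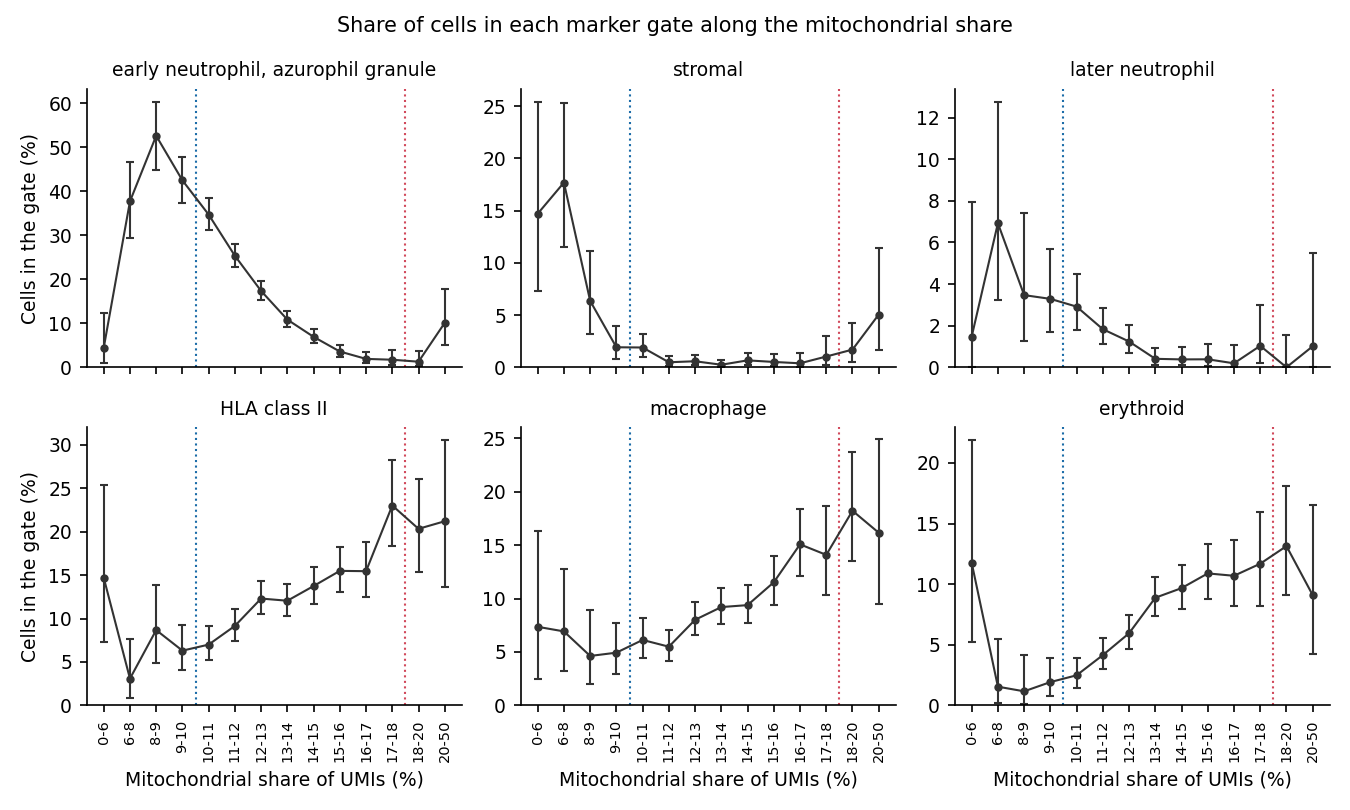
The percentage of cells in each of 6 marker gates (y axis) is drawn along bins of the mitochondrial share (x axis, percent), with 95% Clopper-Pearson intervals and dotted lines at 10% and 18%. The azurophil gate declines with the share within the middle group, while the HLA class II and macrophage gates reach 20.3 and 18.2% of cells at 18 to 20%.

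For single genes, the UMIs of a group were summed, scaled to CPM of nuclear UMIs and compared as a log2 ratio with a pseudocount of 1 CPM. In such sums, more cells of a type and more RNA per cell cannot be told apart. A gene was counted as different where the ratio passed 2-fold in the pool and in the same direction in each of the 4 hashtags. Of 6431 genes with at least 20 CPM in either group, 60 (0.933%) were higher in the low than in the middle group and 21 (0.327%) were lower. In the pool alone, 114 (1.77%) and 46 (0.715%) passed 2-fold. The median log2 ratio of all genes tested was 0.05.

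Among the 60 genes higher at low shares were 10 of a list of azurophil granule and serglycin genes and 5 stromal markers. ELANE, the neutrophil elastase gene (chr19:851014-856247, hg19), was at 233, 117, 37.2 and 23.1 CPM in the low cells of the 4 hashtags and at 16.6, 19.1, 1.96 and 4.44 CPM in the middle cells. All low values exceeded all middle values, and the pooled levels of 117 and 11.2 CPM gave a log2 ratio of 3.27. The defensin gene DEFA4 was at 148, 190, 30.9 and 31.2 CPM against 12.7, 20.8, 3.26 and 2.84, again without overlap (log2 3.28). MPO (chr17:56347216-56358296) was at 6135, 5945, 2109 and 1423 CPM in the low cells and 1442, 1425, 449 and 430 in the middle cells. Here the low value of hashtag 0255 fell within the middle values, and the pooled levels of 4279.5 and 989 CPM gave a log2 ratio of 2.11. The serine protease gene PRTN3 stood at 4255 and 886 CPM (log2 2.26), AZU1 at 437 and 87.8 (2.30), and the lysozyme gene LYZ at 717 and 159 (2.16). SRGN, whose proteoglycan packs granule proteases, was at 1206 and 378 CPM (1.67). The alarmin genes S100A8 and S100A9 were at 299 and 39.3 CPM (2.90) and at 781 and 160 CPM (2.28). Of 16 genes of azurophil granules and serglycin, 15 were tested and 10 passed 2-fold higher in each hashtag, with a median log2 ratio of 2.11. ELANE and DEFA4, at 11.2 and 10.6 CPM in the middle group, reached 20 CPM only in the low group. The filter thus partly fixed their direction.

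COL1A1 (chr17:48261462-48278993), a chain of type I collagen, had the largest ratio. It was at 90.3, 51.9, 183 and 264 CPM in the low cells and at 2.85, 5.92, 7.10 and 30.2 CPM in the middle cells, with a pooled log2 ratio of 3.59. The low and middle values did not overlap. The fibronectin gene FN1 (log2 3.58), the smooth muscle genes TAGLN (3.46) and ACTA2 (3.20), the collagen genes COL3A1 (3.23) and COL4A1 (3.11), the secreted protease gene PRSS23 (3.20) and the cardiac actin gene ACTC1 (3.11) were the others among the 10 largest. Of 9 stromal markers 6 were tested and 5 were higher in each hashtag, with a median of 3.22. COL1A1, ACTA2 and ACTC1 stood at 10.2, 12.1 and 17.2 CPM in the middle group and FN1 at 8.82. These genes reached 20 CPM only in the low group, so the filter partly fixed their direction, this count and this median. With the middle group reweighted to the gate composition of the low group, the stromal median was 0.00 and COL1A1 stood at 0.26, while ACTA2 and ACTC1 were at -0.037 and -0.40.

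Among the 21 genes lower at low shares were 2 erythroid markers (HBZ and GYPB), the megakaryocyte marker ITGA2B and the mast and basophil marker HDC, and the others were in no marker list. HBZ, the embryonic zeta globin gene (chr16:192727-204502), was at 10.2, 6.34, 13.3 and 26.9 CPM in the low cells and 36.5, 125, 276 and 114 CPM in the middle cells, with a log2 ratio of -3.27. All low values lay below all middle values. In the pool HBZ reached the minimum level for testing only in the middle group, so the filter partly fixed its direction. The same holds for any other of these lower genes that was under that level in the low group. GATA1 (chrX:48644948-48652718), the main transcription factor of erythroid and megakaryocyte cells, was at 36.2, 22.3, 23.1 and 8.97 CPM against 95.7, 89.4, 70.7 and 49.0 (log2 -1.66), without overlap. GYPB, a red cell glycophorin, was at 25.2 and 102 CPM in the pool (-1.97), its relative GYPE at -1.91, the Rh-associated glycoprotein gene RHAG at -1.67, and HDC, which makes histamine, at -1.71. GAD1, CCDC173, SFRP5 and STXBP6 completed the 10 largest, at -1.99, -1.92, -1.92 and -1.65. The transcription factor gene GATA2 (-1.49), the integrin gene ITGA2B of platelets (-1.47) and DLK1 (-1.43) also passed in each hashtag. Of 13 erythroid markers 7 were tested, with a median of -1.81.

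**Figure D3:**
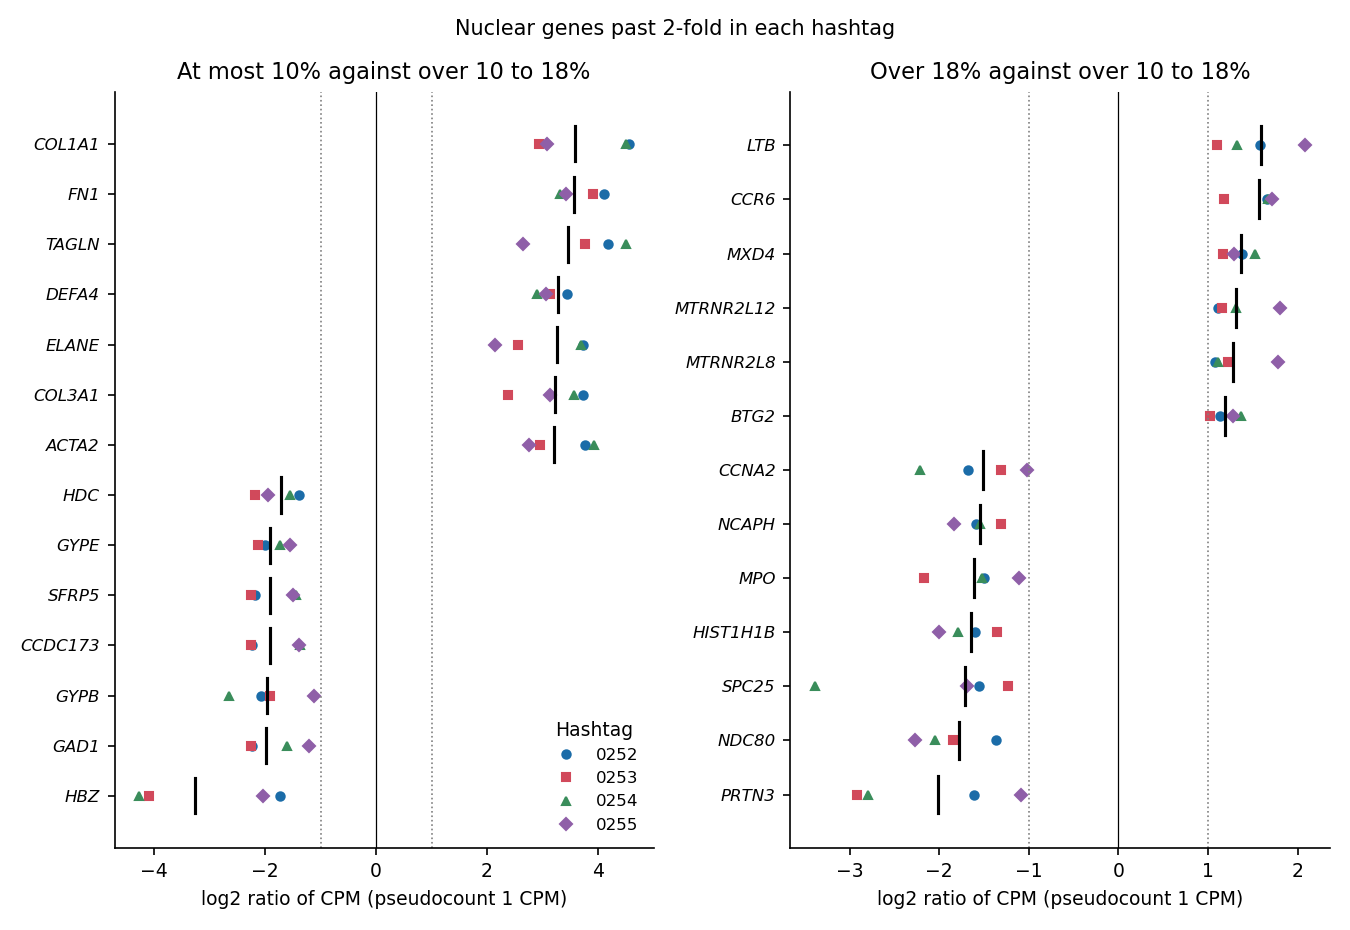
Log2 ratios of CPM (x axis) are drawn for up to 7 genes with the largest ratios in each direction, low over middle on the left and high over middle on the right, with 1 point per hashtag, a bar for the pool and dotted lines at 2-fold. All points of a gene lie past 2-fold on 1 side, and the stromal and granule genes of the low group reach the largest values.

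The lineage makeup of the groups moved with most of these differences. Against a middle group reweighted to the gate composition of the low group, 5 of 6377 genes (0.0784%) were higher in the low group and 1 (0.0157%) was lower. The azurophil median was then 0.95 and the erythroid median -0.35. The gates were themselves set by these marker genes, so the reweighted values of the markers are not independent of it. Reweighting the middle group to the nuclear depth of the low cells left 55 genes higher and 20 lower.

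Granule genes also differed between low and middle cells of the azurophil gate itself, in 298 and 960 cells. Of 6381 genes 7 (0.11%) were higher in the low cells and 1 (0.0157%) was lower. DEFA4 stood at 267 and 62.1 CPM (log2 2.09), ELANE at 285 and 67.8 (2.05), the defensin gene DEFA3 at 136 and 35.4 (1.91), the myeloid nuclear antigen MNDA at 114 and 31.6 (1.82) and S100A8 at 486 and 158 (1.61). SERPINB10 (1.49) and LYZ (1.17) were the other 2 that were higher. The gene that was lower was IGLL1, a surrogate light chain gene of early lymphoid progenitors, at 37.3 and 123 CPM (-1.70). The low cells of this gate were shallower, with a median of 14675.5 nuclear UMIs against 17694.5. With the middle cells reweighted to that depth, 2 genes passed, and the ratios of DEFA4, ELANE and S100A8 were 1.18, 1.43 and 0.81. DEFA3 has near-identical relatives, so its counts can be split among them.

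Cells outside all gates (150 low, 2918 middle) had 0 genes higher and 4 (0.0646%) lower in each hashtag. These were GYPB (-1.97), the microfibril gene MFAP2 (-1.45), HDC (-1.41) and RHAG (-1.38). In the HLA class II gate (52 low, 854 middle) 1 of 6394 genes (0.0156%) was higher, FIZ1 at a log2 ratio of 1.35. There 8 genes (0.125%) were lower, among them the chemokine receptor gene CCR7, at 4.14 CPM from 3 UMIs (0.854 to 12.1) against 39.5 CPM. CCR7 reached 20 CPM only in the middle cells of this gate, so the filter partly fixed its direction. The protease inhibitor genes A2M and TIMP3, and GMPR, MADD and SPINK2, were also among them.

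The endothelial markers did not move together. Of 14 listed, 13 were matched, and summed they stood at 392, 381 and 360 CPM in the low, middle and high groups. Some defining markers were at low levels throughout and highest in the low group. The receptor gene KDR was at 8.11, 0.55 and 0.81 CPM in these groups, the tight junction gene CLDN5 at 6.09, 0.66 and 0.54, and CDH5 at 6.25, 1.001 and 1.90. A UMI of CDH5 was found in 2.58% of low cells, 1.41% of middle cells and 0.896% of the high cells at or below 50%. After thinning each cell to 5000 nuclear UMIs, which left out 48, 35 and 28 cells, the shares of cells with a CDH5 UMI were 1.60, 0.472 and 0.326%, and those with a KDR UMI 1.02, 0.207 and 0%. The count of 0 in 307 cells allows a share of up to 0.977%. Free RNA can give such UMIs, and its part was not tested. In the macrophage and erythroid gates 0.975 and 1.21% of cells had a UMI of CDH5, or 0.286 and 0.528% after thinning. Their median depths were 10814 and 15968.5 nuclear UMIs. Of the cells of these gates, 618 of 718 and 518 of 578 were themselves middle cells. The CDH5 shares of the middle and high cells were near those of these gates, which are not a measure of free RNA. The CDH5 share of the low cells was above those of both gates, with an interval of 1.56 to 4.002% that overlaps the 0.488 to 2.48% of the erythroid gate. The adhesion gene ESAM, which was also seen in 40.1% of thinned erythroid-gated cells, was at 19.4, 28.0 and 41.0 CPM and was seen in 6.10, 11.03 and 14.01% of thinned cells. EGFL7, which haematopoietic progenitors also carry, was at 229, 240 and 193 CPM. Of the matched markers 4 reached 20 CPM, and their median log2 ratio was -0.17 in the low group, or 0.31 where the low limit was set at 8% and 0.42 with no minimum level. The progenitor marker CD34, after thinning, was seen in 19.0, 38.8 and 38.8% of cells, and SPINK2 in 17.3, 19.8 and 13.7%.

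The nuclear genes of the respiratory chain and of the cytosolic ribosome were slightly lower in the low than in the middle group. Over all genes tested, 28.8% were higher in the low group in each hashtag by any size and 17.4% were lower. All 10 complex IV subunit genes were lower in each hashtag, with a median log2 ratio of -0.16, as were 22 of 38 complex I genes (median -0.13), 9 of 15 ATP synthase genes (-0.08) and 58 of 70 cytosolic ribosomal protein genes (-0.13). None of these medians came near 2-fold. Ribosomal protein genes summed to 212332, 232219 and 246901 CPM in the low, middle and high groups. Complex IV genes summed to 6458, 7189 and 7340 CPM in the same order. The other lists were highest in the middle group. Complex I stood at 10761, 11742.5 and 11234 CPM, complexes II and III at 4650, 4989 and 4774, and ATP synthase at 8964, 9657 and 9221.

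The makeup of the mitochondrial RNA itself differed with the share. As a percentage of mitochondrial UMIs, MT-ND2, a complex I subunit, was 4.68, 4.70, 3.53 and 3.63% in the low cells and 2.74, 2.78, 2.46 and 2.50% in the middle cells, without overlap. The pooled values of 4.23 and 2.63% had a ratio of 1.61. MT-ATP8, which codes for a small ATP synthase subunit, was at 0.367 and 0.188%, a ratio of 1.95. The ratios of MT-ND4L, MT-ND1, MT-ND6, MT-ND3, MT-ND4 and MT-ND5 were 1.49, 1.37, 1.37, 1.17, 1.16 and 1.10, each higher in 4 of 4 hashtags. The complex IV genes MT-CO1, MT-CO2 and MT-CO3, at 0.972, 0.928 and 0.904, the ATP synthase gene MT-ATP6 (0.949) and the complex III gene MT-CYB (0.902) were lower in 4 of 4. These are shares of a fixed whole, so a gene that takes more leaves less for the rest. MT-ATP8 and MT-ATP6 lie on a common mRNA, as do MT-ND4L and MT-ND4. The shares count UMIs assigned to each gene and are not levels of separate mRNAs.

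Among middle cells, MT-ND2 took 4.03% of mitochondrial UMIs in the azurophil gate, 3.38% in the later neutrophil gate and 3.35% in the eosinophil gate. It took 2.58% in the endothelial, 2.48% in the HLA class II, 2.29% in the macrophage and 2.16% in the erythroid gate. The difference by share was also present inside gates. Low and middle cells of the azurophil gate had 5.59 and 4.03%, a log2 ratio of 0.47, and cells without a gate 3.30 and 2.38%, a log2 ratio of 0.48. In the high cells at or below 50%, all 7 complex I genes and MT-ATP8 took a lower share than in the middle cells in 4 of 4 hashtags. MT-ND2 was at 0.855 times and MT-ND6 at 0.721 times the middle value. In the barcodes over 50%, MT-ND6, the mRNA read from the other strand of the genome, was instead at 1.70 times the middle share and higher in 4 of 4 hashtags, while MT-ND5 was at 0.620 times. The library was primed on poly(A) tails, and mitochondrial mRNAs differ in tail length, so these shares compare a gene with itself across groups and not 1 gene with another.

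**Figure D4:**
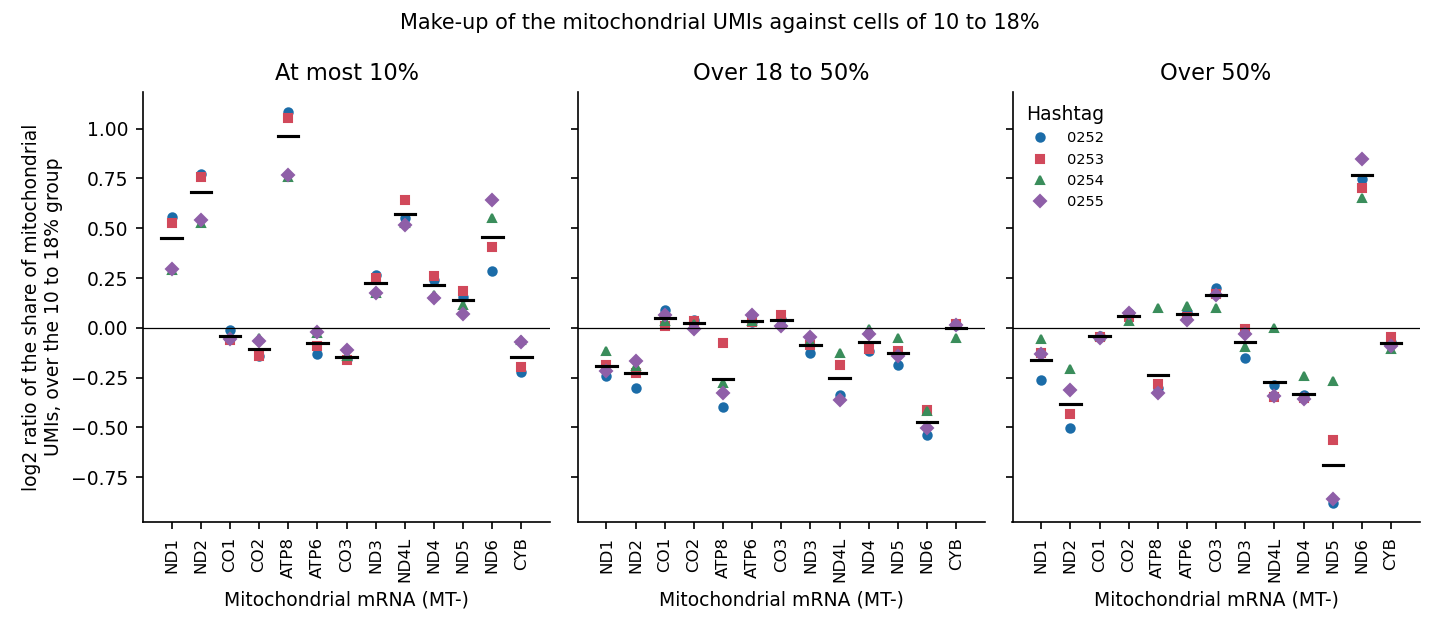
For each of the 13 mitochondrial mRNA genes (x axis) the log2 ratio of its share of mitochondrial UMIs to that in the middle group (y axis) is drawn per hashtag, in panels for the low cells, the cells over 18 to 50% and the barcodes over 50%. MT-ND2 and MT-ATP8 lie above 0 in the low panel, and MT-ND6 changes side between the other panels.

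High shares, below 50%, went with macrophage-gated and HLA class II-gated cells. Among the 335 cells over 18 to 50%, the macrophage gate took 17.6% (13.7 to 22.1%) against 9.07% of the middle group, and by hashtag 10.6, 11.5, 25.3 and 25.7% against 8.26, 11.1, 9.02 and 7.61%. The HLA class II gate took 20.6% (16.4 to 25.3%) against 12.5%, and by hashtag 22.1, 16.7, 21.7 and 21.4% against 11.99, 10.7, 13.2 and 14.7%. Both were higher in 4 of 4 hashtags. The erythroid gate took 11.9% against 7.60%, but by hashtag 17.3, 19.2, 7.23 and 1.43% against 9.54, 9.85, 6.67 and 3.35%, so that hashtag 0255 went the other way. The azurophil gate took 3.88% against 14.1%. Over the whole high group the macrophage gate was 11.1% and the HLA class II gate 14.2%, with 177 of the 206 barcodes over 50% outside every gate. Stromal cells made up 2.22% of the high group against 0.646%, and the median log2 ratio of the stromal markers was 2.02, -0.10, -0.15 and 2.84 in the 4 hashtags.

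Of 6417 genes, 6 (0.0935%) were higher in the high than in the middle group in each hashtag, and 23 (0.358%) were lower. In the pool alone 79 (1.23%) and 115 (1.79%) passed 2-fold. Without the barcodes over 50% the counts were 3 (0.047%) and 32 (0.501%) of 6387. The median of all genes was -0.02. The high group was shallower, and nuclear UMIs enter the share by which the groups were made. Depth moved with these results. Against middle cells reweighted to the gates of the high group, 2 of 6377 (0.0314%) were higher and 13 (0.204%) lower. Against middle cells reweighted to the same nuclear depth, 0 genes were higher and 6 lower, or 0 and 7 without the barcodes over 50%.

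Among the 23 lower genes were 2 azurophil markers, 4 genes of the mitosis list, 1 of the S phase list and 1 clustered histone gene. PRTN3 (chr19:840999-848175) was at 387, 194, 50.4 and 161 CPM in the high cells and 1179, 1468, 356 and 343 in the middle cells, with pooled levels of 219 and 886 CPM and a log2 ratio of -2.01. MPO was at 323 and 989 CPM (-1.61). With the middle group reweighted to the gates of the high group, these ratios were -0.62 and -0.33. NDC80 (chr18:2571556-2616634), a subunit of the complex that ties microtubules to kinetochores, was at 21.3, 15.8, 13.2 and 11.8 CPM in the high cells and at 56.5, 59.3, 57.5 and 61.0 CPM in the middle cells. The groups were far apart in every hashtag, with a log2 ratio of -1.78, which was -1.76 after reweighting to gates and -1.06 after reweighting to depth. In the pool NDC80 reached the minimum level for testing only in the middle group, so the filter partly fixed its direction. The same holds for any other of the lower genes that was under that level in the high group.

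Others among the 10 largest were SPC25 of the same complex (-1.72), the linker histone gene HIST1H1B (34.5 and 110 CPM, -1.64), the condensin gene NCAPH (-1.55), the cyclin gene CCNA2 (22.0 and 64.5 CPM, -1.51), GINS1 of the replicative helicase (-1.38) and CDCA2 (-1.37). TOP2A (chr17:38544777-38574148), the topoisomerase that untangles sister chromatids, was at 134 and 330 CPM (-1.30). The mitotic kinase gene PLK1 was at 45.3 and 115 CPM (-1.33) and the nuclease gene FEN1 at -1.25.

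Of the 20 mitosis genes listed, 20 were tested and 20 were lower in the high group in each hashtag, where 29.9% of all genes tested were lower in each hashtag by any size. The median log2 ratio was -1.13, and -1.08, -0.95, -1.37 and -1.21 by hashtag. Past 2-fold, 16 were lower in the pool and 4 in each hashtag. Summed, the list stood at 1447, 1625, 1102 and 1444 CPM in the high cells and 2972, 3079, 2943 and 3179 CPM in the middle cells, with no overlap. The median was -1.12 after reweighting to gates and -0.61 after reweighting to depth. Of the S phase genes 18 were tested and 17 were lower in each hashtag, with a median of -0.98, or -0.85 and -0.60 after the same reweightings.

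The mitosis genes share promoter elements, which are shown because these genes moved together. Many promoters of G2 and mitosis genes carry a CHR element (TTTGAA) with CCAAT boxes upstream, to which the DREAM and NF-Y complexes can bind. In RefSeq promoters of GRCh38.p14, from 250 bases before to 50 after the start and read on both strands, TTTGAA was found in 13 of the 17 mitosis genes that matched (76.5%) and in 15.4% of 27305 promoters. CCAAT was found in 15 of 17 (88.2%) against 35.7%, and both in 12 of 17 (70.6%) against 6.08%. A short element occurs often by base composition, and a match describes letters, not binding. The 120 bases before the start of 4 of these genes are printed on the plus strand. Capitals mark TTTGAA, and they mark CCAAT on either strand, which reads ATTGG from the other one. They are CCNB2 at chr15:59105026-59105145, CDC20 at chr1:43358861-43358980, PLK1 at chr16:23678769-23678888 and HMMR at chr5:163460512-163460631. In HMMR a box on 1 strand overlaps a box on the other.
CCNB2: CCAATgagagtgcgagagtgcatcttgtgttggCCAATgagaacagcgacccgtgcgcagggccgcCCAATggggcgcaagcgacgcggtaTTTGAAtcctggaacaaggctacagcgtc
CDC20: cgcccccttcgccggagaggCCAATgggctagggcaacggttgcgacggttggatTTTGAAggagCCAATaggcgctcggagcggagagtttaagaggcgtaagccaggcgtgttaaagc
PLK1: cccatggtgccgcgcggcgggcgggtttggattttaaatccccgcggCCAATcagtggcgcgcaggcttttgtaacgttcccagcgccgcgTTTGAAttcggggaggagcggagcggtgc
HMMR: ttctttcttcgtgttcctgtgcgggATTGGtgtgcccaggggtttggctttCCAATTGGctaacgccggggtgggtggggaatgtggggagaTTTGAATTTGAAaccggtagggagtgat

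In the high and middle groups, CCNB2, the B2 cyclin, was at 48.3 and 101 CPM (-1.05), CDC20, the activator of the anaphase-promoting complex, at 68.4 and 158 (-1.20), and HMMR, a spindle protein, at 57.0 and 118 (-1.04). The cyclin gene CCNB1, at 77.4 and 169 CPM, held CCAAT and no TTTGAA in this window. CKS2 had the smallest ratio of the list, -0.72. Among the S phase genes TTTGAA was found in 1 of 15 matched promoters, while the E2F letters TTTGGCGC, TTTCCCGC, TTTCGCGC or TTTGCCGC were found in 10 of 15 (66.7%) against 3.33% of all promoters and 2 of 17 mitosis genes.

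The level of the mitosis genes did not change in 1 direction along the share. Summed, they were at 3602 CPM at 8 to 10%, 3643 at 10 to 12%, 2440 at 14 to 16%, 1517 at 16 to 18% and 1223 at 18 to 20%, and then at 1749 at 20 to 25% and 1967 at 25 to 50%. Most of the difference thus lay within the middle group, which the rule treats as 1. The median nuclear depth was 18021.5 UMIs at 10 to 12%, 12908 at 16 to 18% and 5469.5 at 25 to 50%. The bins from 20% up held 67 and 32 cells, and the part of depth in this course was not tested. In the low group 13 of 20 mitosis genes were higher than in the middle group in each hashtag, where 28.8% of all genes tested were. The mitosis median there was 0.26, or 0.10 after reweighting to depth.

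The HLA class II genes, which present antigen on dendritic cells, macrophages and B cells, were higher at high shares. Summed, the 6 genes were at 2036, 1998, 4486 and 5707 CPM in the high cells and 1070, 1058, 1327 and 1456 CPM in the middle cells, without overlap, and at 738 CPM in the pooled low cells. All 6 were higher in the high group in each hashtag, where 19.7% of all genes tested were, with a median log2 ratio of 1.51. None passed 2-fold in each hashtag. The median was 0.73 after reweighting to gates and 0.35 after reweighting to depth.

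LTB (chr6:31548302-31550299), a lymphotoxin subunit made by lymphoid and dendritic cells, had the largest ratio among the genes that were higher. It was at 256, 279, 715 and 1714 CPM in the high cells and 85.0, 129, 285 and 403 CPM in the middle cells. The ranges overlapped between hashtags, and the high value was larger within each, with a pooled log2 ratio of 1.59. The chemokine receptor gene CCR6 was at 69.5 and 22.8 CPM (1.57), MXD4, which antagonises MYC, at 128 and 48.9 (1.37), and the growth-arrest gene BTG2 at 91.0 and 39.3 (1.19). After reweighting to depth their ratios were 1.01, 0.79, 0.73 and 0.32. The remaining pair, MTRNR2L12 (459 and 184 CPM, 1.32) and MTRNR2L8 (673 and 277 CPM, 1.28), are nuclear genes whose sequence copies the mitochondrial 16S rRNA, so reads of either can be hard to tell apart and their levels are uncertain. Without the barcodes over 50% they stood at 285 and 426 CPM.

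Stress genes did not move as a block. Of all genes tested, 29.9% were lower and 19.7% higher in the high group in each hashtag by any size. Of 13 heat shock genes 10 were tested and 8 were lower in the high group in each hashtag, with a median of -0.49, or -0.20 after reweighting to depth. The chaperone gene HSP90AA1 was at 1797 and 2920 CPM, and HSPH1 and DNAJA1 had ratios of -0.80 and -0.75. Of 10 genes of the mitochondrial unfolded protein response and import 9 were lower in each hashtag (median -0.51), as were 54 of 71 genes of the mitochondrial ribosome (-0.29). Both medians are before reweighting to depth. Immediate early genes, which dissociation of tissue induces, went the other way, with 6 of the 8 tested higher in each hashtag (median 0.65, or 0.20 after reweighting to depth). The medians of the p53 target, apoptosis and integrated stress response lists were 0.15, 0.07 and 0.09 in the high group, near that of all genes. In the low group the heat shock median was 0.16 and the immediate early median 0.21, the latter at 0.65, 0.02, 0.03 and -0.14 by hashtag. HSPA5, the chaperone of the endoplasmic reticulum, was at 712 CPM in the low and 358 CPM in the middle group (log2 0.99).

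MALAT1 (chr11:65265111-65275544), a long RNA that stays in the nucleus, was at 14043 CPM in the high group and 9836 in the middle group, and NEAT1, another, at 1004 and 523. Nuclear-retained RNAs summed to 16459, 15680, 13513 and 14880 CPM in the high cells and 10377, 10559, 10626 and 10665 CPM in the middle cells, without overlap. The low cells, at 11928, 11137, 10736 and 12976 CPM, also lay above all middle values. Higher levels of these RNAs were thus not particular to high shares.

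**Figure D5:**
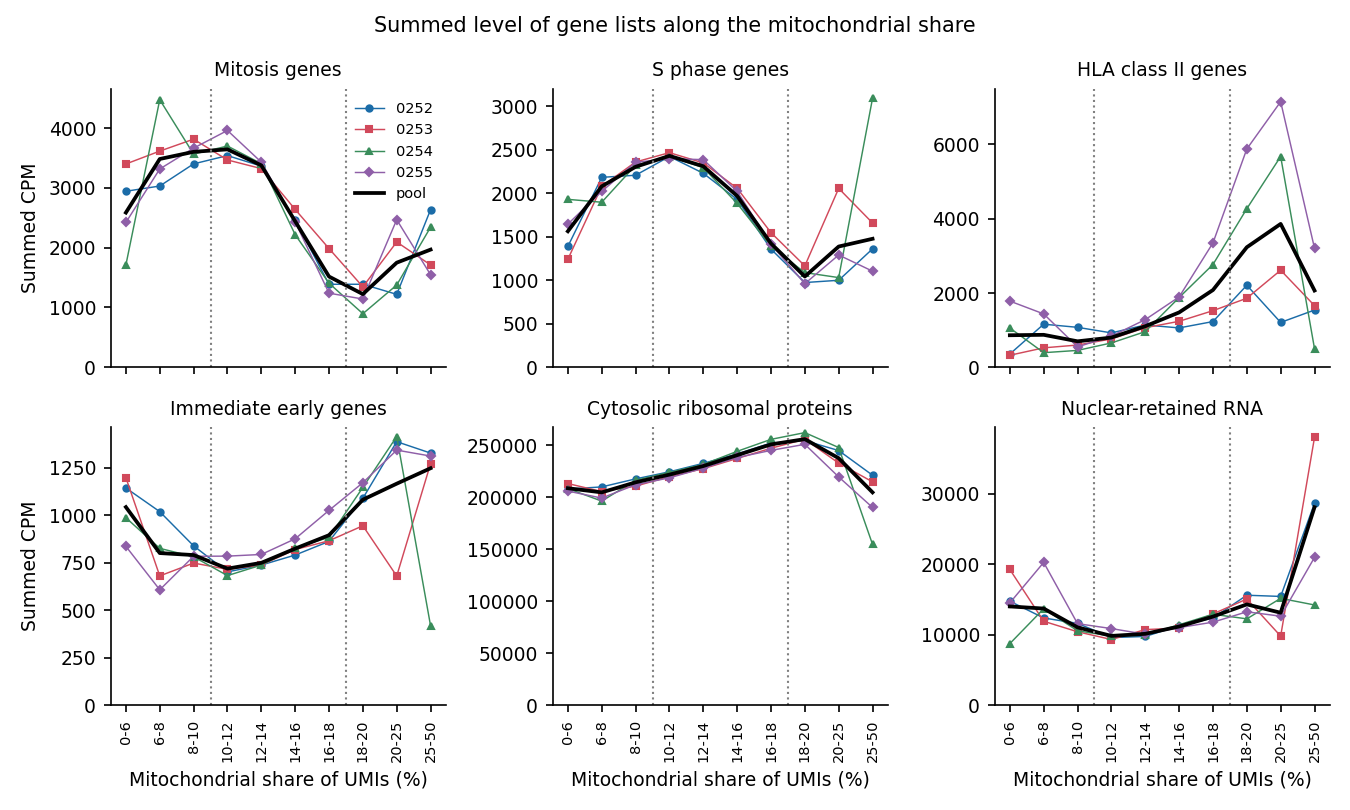
Summed CPM of 6 gene lists (y axis) is drawn along bins of the mitochondrial share up to 50% (x axis, percent), with thin lines for the hashtags, a thick line for the pool and dotted lines at 10% and 18%. Mitosis and S phase levels are lowest near 18 to 20%, HLA class II levels climb from 10 to 25%, and the outer bins hold few cells per hashtag.

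The lower level of division genes was also seen within gates. Among cells without a gate (279 high, 2918 middle) 8 genes (0.126%) were higher and 27 (0.427%) lower in each hashtag, and without the barcodes over 50% (102 high) 6 (0.0953%) and 42 (0.667%). HIST1H1B was at 28.7 and 120 CPM (-2.02) and NDC80 at -1.96, and MXD4 was higher (1.45). The mitosis median was -1.25, or -0.72 after reweighting to depth. In the HLA class II gate (77 high, 854 middle) 12 (0.186%) were higher and 38 (0.587%) lower, or 7 (0.109%) and 39 (0.609%) without the barcodes over 50%. There GINS1 had 0 UMIs against 20.5 CPM. A bound of 3 UMIs allows up to 4.39 CPM, and at that bound it was at least 4.67-fold lower. NDC80 was at 8.92 and 65.9 CPM (-2.75) and UBE2C, which tags mitotic proteins for removal, at 56.5 and 309 (-2.43), and MXD4 was at 158 and 59.1 (1.40). GINS1 and NDC80 reached 20 CPM only in the middle cells of this gate, so the filter partly fixed their direction. The mitosis median was -1.51, or -0.94 after reweighting to depth.

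In the macrophage gate (60 high, 618 middle) 3 genes (0.0473%) were higher and 22 (0.347%) lower. LTB was at 1918 and 533 CPM (1.85), with ARSD (1.43) and HEATR5A (1.24). The chemokine genes CCL2 and CCL1 had 0 UMIs in the high cells, against 52.3 and 36.7 CPM in the middle cells. A bound of 3 UMIs allows up to 5.96 CPM, and at that bound they were at least 8.78-fold and 6.15-fold lower. The fatty acid carrier gene FABP4 was at 3.98 CPM from 2 UMIs (0.481 to 14.4) and at 152 CPM, and the metallothionein gene MT2A at 5.96 and 77.1 CPM (-3.49). CCL2, CCL1, FABP4 and MT2A reached 20 CPM only in the middle cells of the gate, so the filter partly fixed their direction. The mitosis median was -1.02 and only -0.24 after reweighting to depth.

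In the 206 barcodes over 50%, all nuclear RNA together came to 78014 UMIs, so levels there are coarse. MALAT1 took 35365 CPM, found in 177 barcodes, and NEAT1 2243 CPM. MTRNR2L8, found in 200 barcodes, was at 12113 CPM and MTRNR2L12, in 186, at 8498 CPM, 43.6 and 46.0 times the middle group. Ribosomal protein genes summed to 126939 CPM, lower than in any other group, and the iron storage gene FTL was at 3487 CPM against 8047. The mitosis genes summed to 3730 CPM, above the 1364 CPM of the cells over 18 to 50%, and the proliferation gene MKI67 was at 474 CPM against 178 in the middle group.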

How the data were processed

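Single cells of 1 pooled library were captured with 10x Genomics 3' chemistry, together with TotalSeq-B antibody hashtags. The authors ran Cell Ranger 6.0.1 on hg19 and deposited raw UMI counts for 32738 genes and 4 hashtags per barcode, and a table that calls each barcode for 1 hashtag, as a doublet or as negative. The rule behind those calls is not given in the sources used here. Barcodes called as doublets (1339) or negative (1009), and 397 beyond the limits on counts or genes, were left out. Doublets within 1 hashtag cannot be seen in these calls, and no other doublet caller was run. No filter on the mitochondrial share was applied, whereas the study removed cells over 18%.

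UMIs were summed per group and hashtag over 32725 nuclear genes, scaled to CPM of nuclear UMIs and compared as log2 ratios with a pseudocount of 1 CPM, among genes with at least 20 CPM in either group. With 1 library there is no test. Levels have exact Poisson intervals and shares Clopper-Pearson intervals, at 95%. For a count of 0, the level or share it allows was taken from 3 counts. For reweighting, the middle cells of each gate, or of each of 12 depth ranges, were weighted to the proportions of the other group. Named genes were the 10 largest ratios in each direction past 2-fold in all 4 hashtags (5 within gates), the most changed members of each gene list, the marker genes and the 13 mitochondrial mRNA genes. For high cells within gates only some of these 5 are printed, beside other genes such as MXD4, NDC80 and UBE2C. The genes printed there are therefore a selection and not a ranking. A few others (HSPA5, GATA2, DLK1, MKI67 and FTL) were chosen after their values were seen. A gene that the rule named is not reported here. The members, gene lists and gate limit were chosen with earlier results of these data known. On simulated counts with 200 genes changed 4-fold, the calls recovered 100% of them among 6020 genes for the low group and 99% among 6046 for the high group, with 0 false calls in both. These counts were drawn from the same mean levels in all hashtags, with no lineage mix and no spread between cells. They cannot show how often lineage makeup or spread between cells gives a call. Alternatives were other limits on the share, depth, pseudocounts, gates, thinning and leaving out each hashtag. Leaving out barcodes over 50%, reweighting to depth and counting MTRNR2L genes as mitochondrial were chosen after seeing the data. Promoters came from RefSeq (GRCh38.p14). Scripts used Python 3.11.15, numpy 2.4.6, scipy 1.17.1, pandas 2.3.3 and matplotlib 3.10.9.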

Additional observations from a re-analysis of the deposited data

Results flagged for a closer look

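Barcodes that entered no comparison also included cells with a high mitochondrial share. Among the 1000 barcodes called negative for every hashtag and within the limits on counts and genes, 19.1% (16.7 to 21.7%) lay over 18% and 10.8% (8.94 to 12.9%) over 50%. Among the 904 barcodes called as hashtag doublets within the limits, 7.74% (6.09 to 9.68%) lay over 18% and 1.77% (1.01 to 2.86%) over 50%. A count of 0 would allow up to 0.3% and 0.332%. Barcodes with a single hashtag had 6.69% (6.15 to 7.25%) and 2.55% (2.21 to 2.91%). The negative barcodes were shallower, with a median of 12210 nuclear UMIs against 15477 in those with a single hashtag.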

How the results depend on the processing

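No paired analysis was possible because the library is 1 sample and the labels carry no replicate numbers. Of 1348 recomputed values of single genes, lists and mitochondrial mRNAs, 1147 moved by no more than the standard deviation over hashtags, with or without a change of sign. Beyond it, 190 moved without a change of sign and 11 changed sign. Counts below are genes past 2-fold in the pool and in each hashtag, and their causes were not tested. The 60 genes higher in the low group became 168 with a limit of 8%, 39 with hashtag UMIs added to the total, 104 with no limit on counts or genes, 168 with no minimum level and 5 after reweighting to gates. The 21 lower became 7 (limit of 8%), 12 (thinned), 36 (no minimum) and 1 (gates). The 6 higher in the high group became 14 (limit of 20%), 2 (cells under 5000 nuclear UMIs left out), 12 (no minimum), 2 (gates), 3 (no barcodes over 50%) and 0 after reweighting to depth with or without those barcodes. The 23 lower became 1 (limit of 20%), 2 (hashtag UMIs), 35 (under 5000 out), 12 (pseudocount of 5 CPM), 37 (no minimum), 13 (gates), and 6 or 7 (depth). Leaving out 1 hashtag, which asks less of a gene, gave 60 to 72, 21 to 30, 7 to 16 and 25 to 68.

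In percentage points, low minus middle, the azurophil gate went from 26.4 to 12.2, the stromal gate from 6.28 to 16.02 and the erythroid gate from -5.02 to -2.55 at a limit of 8%. Without 1 hashtag the ranges were 21.9 to 29.6, 4.14 to 8.39, -5.89 to -4.35 and, for the later neutrophil gate, 1.18 to 3.29. High minus middle, the azurophil gate ranged from -11.7 to -7.69 without 1 hashtag. The HLA class II, macrophage and erythroid gates, at 1.70, 2.02 and -0.0234, were -3.02, -3.50 and -4.32 at a limit of 20% and -3.84, -4.16 and -3.56 with hashtag UMIs added. They were 8.94, 8.95 and 4.77 without cells under 5000 nuclear UMIs, 7.76, 10.1 and 6.38 thinned, and 8.06, 8.54 and 4.34 without barcodes over 50%. Without 1 hashtag they were 0.213 to 3.79, 0.176 to 3.52 and -1.17 to 1.42.

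Within gates, the 8 genes of the azurophil gate (low) became 1 (limit of 8%), 17 (no minimum) and 2 (depth), and 10 to 17 without 1 hashtag. The 9 of the HLA class II gate (low) became 5 (pseudocount of 5 CPM) and 336 (no minimum). The 4 without a gate (low) became 7 and 1 (pseudocounts of 0.1 and 5 CPM), 43 (no minimum), 11 (gate limit doubled) and 2 (depth), and 8 to 15 without 1 hashtag. For high cells, the 50 of the HLA class II gate became 29 (pseudocount of 5 CPM), 337 (no minimum) and 10 (depth, with or without barcodes over 50%), and 79 to 102 without 1 hashtag. The 25 of the macrophage gate became 11 and 460, and 67 without hashtag 0253. The 35 without a gate became 19, 189, 15 (gate limit doubled) and 2 or 4 (depth), and 58 to 78 without 1 hashtag.

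Beyond the standard deviation over hashtags, signs changed for the endothelial median in low cells (0.31 at a limit of 8%, 0.42 with no minimum), MT-CO1 in low cells (0.029 at 8%), the ribosomal median and MT-CO1 in high cells (-0.062 and -0.021 at 20%, MT-CO1 -0.016 with hashtag UMIs), MT-ND6 in high cells (-0.58 without cells under 5000, -0.47 without barcodes over 50%), MT-CYB (0.0017 without cells under 5000), and ACTA2 and ACTC1 in low cells (-0.037 and -0.40 with gates). Without 1 hashtag the immediate early median ranged from -0.08 to 0.32 in low cells and the endothelial median from -0.09 to 0.36 in high cells.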

Other observations

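Of the 736 low cells, 48 had under 5000 nuclear UMIs, and 20, 8, 6 and 14 of them carried hashtags 0252 to 0255. Their medians were 1607 nuclear and 47.5 mitochondrial UMIs, so both kinds of RNA were scarce. The small nuclear RNA gene 7SK, whose product holds the elongation factor P-TEFb inactive, was at 5856 CPM against 36.9 CPM in the middle group and was found in 23 of these barcodes. HEXIM1, a protein partner of that RNA, was at 307 CPM against 30.5 CPM. The actin-binding gene TMSB4X was at 11461 against 5461 CPM. These genes were chosen after their values were seen, and the levels rest on few barcodes.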
